A study of Anolis carolinensis with 142 samples.

Results

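Eyes of green anoles (Anolis carolinensis, a day-active lizard) exposed to artificial light at night (ALAN) were compared with eyes taken on a dark night (Midnight). The members were chosen by their tissue and treatment labels alone and were 16 of the 142 libraries of the study: 8 ALAN eyes (4 males and 4 females) and 8 Midnight eyes (4 males and 4 females). The study also holds 8 Midday eyes, which entered the fit to help estimate the spread and the counting term described below. The 24 animals were adults caught wild, labelled WT, and each met 1 treatment, so every library of the eye came from a separate lizard. ALAN and Midnight eyes were dissected within the same hours of the night, and a red torch shone on both groups during dissection, so neither group was free of red light. The labels and design text used here do not state the source, strength or duration of the night light, and all libraries carry the same batch label.

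The vertebrate eye both senses light and keeps its own circadian clock. In the retina, photoreceptors and other cells express clock genes, make melatonin at night, and change phototransduction and metabolic genes between day and night. Light falling at night can lower melatonin synthesis and induce clock and immediate-early genes within hours. None of these genes could be looked up here, because the gene IDs of the count table could not be paired with names: 0 of 26479 IDs matched the RefSeq gene table used. Genes are therefore given by ID or by position, with no name and no role.

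The identity of the tissue could not be checked against named markers for the same reason. By median correlation of log CPM, 16 of the 16 ALAN and Midnight libraries were closest to eye libraries. Their totals ran from 10826635 to 22008762 counts (median 16468165), and 19904 to 20335 genes had at least 1 count. The totals fell into 2 classes that also differed in the share of even numbers among counts of 1 to 20. The high-share class had 59.6% to 62.4% even counts and totals of 20961206 to 22008762, while the low-share class had 40.5% to 43.2% and 10826635 to 11975124. ALAN eyes were of the high-share class in 7 of 8 libraries, Midnight eyes in 1 of 8 and Midday eyes in 1 of 8. Treatment and class therefore overlapped almost wholly, and only ALAN female 3 and Midnight male 1 crossed them, besides Midday female 4. What produced the classes was not tested, and the class was a term of every fit unless stated. By their median correlation with the other eyes 3 libraries stood apart, all Midday, and none of the ALAN or Midnight libraries did. Midday female 4, the 1 high-share Midday eye, was among them, at 0.944 against a threshold of 0.952. The class term of the fit thus leans in part on a library that stood apart.

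Few genes passed the test between lit and dark night in the eye. Of 16462 genes tested, 5 changed (0.0304%), with 3 higher (0.0182%) and 2 lower (0.0121%) under ALAN, by edgeR's quasi-likelihood test at a Benjamini-Hochberg adjusted p under 0.05. The 3 that rose did so by 1.17 to 1.66 on the log2 scale, and the 2 that fell by -1.77 and -0.47. The median log2 change over all genes was -0.0013, and the middle 90% of genes lay between -0.52 and 0.55. At an unadjusted p under 0.05 there were 908 genes (5.52%), near the 0.05 share that this cut passes when no gene differs. Without the class term 26 genes were called (0.158%), 13 in each direction (0.079% each), and all 5 were among them. In a whole eye, fewer cells of a type and less RNA per cell cannot be told apart. The calls, more than the size of the changes, rested on few libraries: 1 of the 5 was still called without Midday female 4, 1 without Midnight male 1 and 1 without ALAN female 3, and each of the last 2 fits called 1 other gene. With only the ALAN and Midnight eyes in the fit edgeR called 0 genes (1158 at an unadjusted p under 0.05), while the log2 changes of the 5, in the order they are described below, were 1.52, 1.32, 1.21, -1.92 and -0.40 (adjusted p 0.142 to 0.153).

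**Figure D1:**
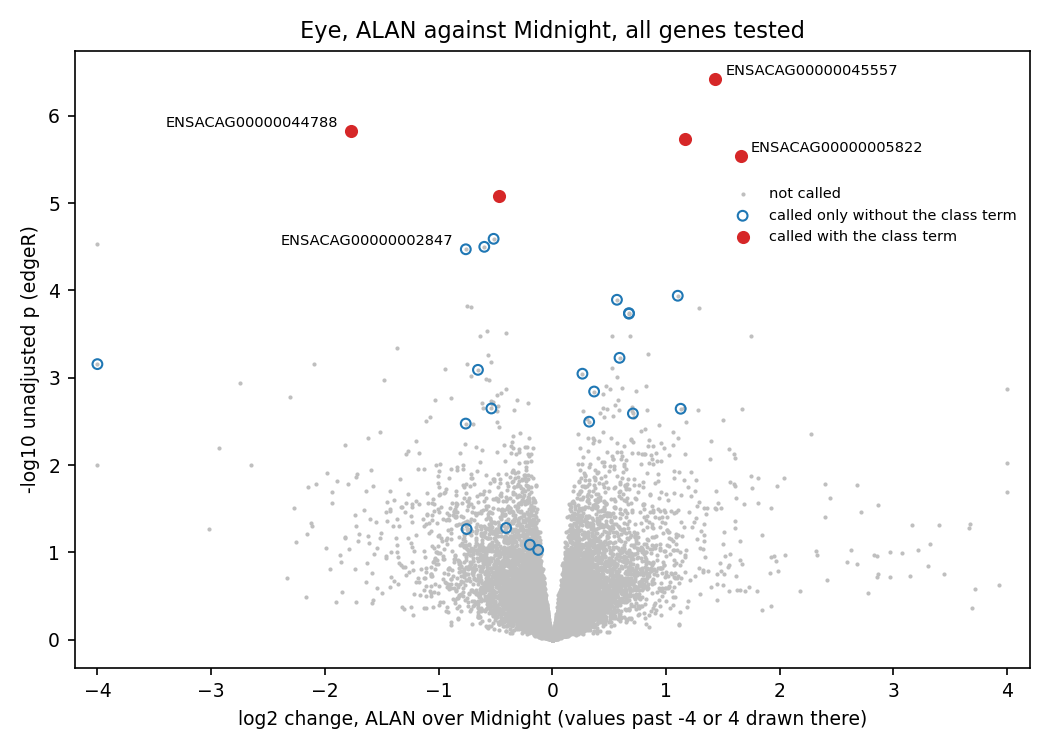
Each point is a gene: the x axis gives the log2 change, ALAN over Midnight, and the y axis -log10 of the unadjusted edgeR p from the fit with the counting class. The 5 called genes (red) stand above the other points, and the genes called only without the class term (blue rings) lie at smaller values of -log10 p.

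ENSACAG00000005822, a gene of 1 exon and 318 bases on chromosome 4 (126025596 to 126025913, plus strand), had the largest called rise. Its level, in CPM (read counts scaled to a common library total, here with TMM factors), was 27.2 at the lowest, 43.9 at the median and 63.3 at the highest in the 8 ALAN eyes. In the 8 Midnight eyes it was 12.0, 15.4 and 24.7 CPM. Every ALAN eye lay above every Midnight eye. The log2 change was 1.66 ± 0.27 (SE, adjusted p = 0.0118, edgeR; 95% interval 1.10 to 2.21), a 3.15-fold difference. The 8 Midday eyes had 29.3, 52.1 and 71.0 CPM, a range that takes in nearly all of the ALAN eyes. Midday against Midnight gave a log2 change of 1.51 (adjusted p = 4.55e-05, edgeR), and ALAN against Midday 0.14 (adjusted p = 0.838, edgeR). These contrasts share libraries and are set side by side only as values. In males the change was 1.55 ± 0.35 and in females 1.86 ± 0.34 (log2, SE).

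ENSACAG00000045557, with 2 exons and 579 bases on the unplaced scaffold GL343506.1 (324957 to 338438, plus strand), also rose. It had 5.20, 8.15 and 9.50 CPM (lowest, median, highest) in ALAN eyes, against 2.76, 3.41 and 4.57 CPM in Midnight eyes. The groups did not overlap. The log2 change was 1.43 ± 0.20 (SE, adjusted p = 0.00621, edgeR; 95% interval 1.02 to 1.86). Unlike the gene before it, this one was not at its lit-night level at Midday: the Midday eyes had 2.88, 4.60 and 5.62 CPM, and 7 of 8 ALAN eyes lay above all of them. Midday against Midnight gave 0.29 (log2, adjusted p = 0.237, edgeR), and ALAN against Midday 1.14 (log2, adjusted p = 0.00922, edgeR). Males changed by 1.44 ± 0.27 and females by 1.48 ± 0.26 (log2, SE).

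Another gene that rose lies on scaffold GL343257.1 (1418084 to 1420805, minus strand), with 2 exons and 921 bases. Its levels were 5.88, 9.25 and 12.7 CPM in ALAN eyes, against 3.68, 5.16 and 6.04 CPM in Midnight eyes. The groups met only at their edges. The log2 change was 1.17 ± 0.18 (SE, adjusted p = 0.0102, edgeR; 95% interval 0.79 to 1.55). At Midday the level was 9.32, 9.97 and 12.4 CPM, with a log2 change over Midnight of 1.12 (adjusted p = 3.15e-05, edgeR) and of 0.05 for ALAN over Midday (adjusted p = 0.916, edgeR).

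ENSACAG00000044788, with 2 exons and 1180 bases on scaffold GL343399.1 (901013 to 903183, minus strand), had the largest called fall. It had 132, 217 and 298 CPM in ALAN eyes, against 267, 608 and 1007 CPM in Midnight eyes. The dark-night eyes varied widely, from Midnight male 4, which lay within the ALAN range, to Midnight male 1 at the top. The mean was 213 ± 56.6 CPM in ALAN eyes and 637 ± 254 CPM in Midnight eyes (SD, n = 8 each). The log2 change was -1.77 ± 0.27 (SE, adjusted p = 0.0102, edgeR; 95% interval -2.34 to -1.21). Without Midnight male 1 it was -1.25 with an adjusted p of 0.658 (edgeR), so the call rested on that library. Midday eyes were lower still in level, at 65.8, 133 and 186 CPM; their log2 change against Midnight was -2.23 (adjusted p = 2.07e-06, edgeR), and ALAN over Midday was 0.46 (adjusted p = 0.480, edgeR). This is the 1 called gene among 206 that are enriched in the eye, that is, at least 8-fold above every other tissue in mean level. Its mean over all eye libraries was 330 CPM, against 1.95 CPM in brain, the next highest tissue.

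The other gene that fell lies on chromosome 1 (46098567 to 46150299, plus strand), has 8 exons and 1939 bases, and its span overlaps 1 other gene. It had 108, 121 and 132 CPM in ALAN eyes, against 130, 160 and 165 CPM in Midnight eyes. Only the lowest Midnight eye, male 4, lay within the ALAN range. The log2 change was small, -0.47 ± 0.08 (SE, adjusted p = 0.0275, edgeR; 95% interval -0.63 to -0.30). The call was lost without the sex term (adjusted p = 0.349, edgeR) and without the libraries that stood apart (adjusted p = 0.145, edgeR). It was also lost in 6 of 24 single omissions (adjusted p up to 0.256, edgeR). The Midday eyes had 128, 147 and 193 CPM, with a log2 change of 0.01 against Midnight (adjusted p = 0.917, edgeR) and of -0.48 for ALAN over Midday (adjusted p = 0.00598, edgeR). The overlap is one of spans, and whether exons of both genes overlap was not looked at. Reads from any shared stretch could not be told apart where strand was not counted. None of the sources used here gives the strand setting.

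ENSACAG00000002847, with 8 exons and 1947 bases on chromosome 6 (69322100 to 69337242, minus strand), was included because earlier results of these data had named it as high at night in several tissues. It had 253, 308 and 388 CPM in ALAN eyes, against 400, 481 and 520 CPM in Midnight eyes. Every ALAN eye lay below every Midnight eye. With the class term the log2 change was -0.76 ± 0.15 (SE, 95% interval -1.06 to -0.46), which missed the threshold (adjusted p = 0.0618, edgeR); without the term it was -0.62 ± 0.11 (adjusted p = 0.0108, edgeR). The Midday eyes were far below both night groups, at 40.0, 48.6 and 76.0 CPM. Their log2 change against Midnight was -3.20 (adjusted p = 2.27e-14, edgeR), and ALAN over Midday was 2.44 (adjusted p = 1.86e-09, edgeR). The lit-night eyes thus lay between the dark-night and the midday eyes, and nearer to the dark-night ones. The values were -0.68 ± 0.16 in males and -0.65 ± 0.16 in females (log2, SE).

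**Figure D2:**
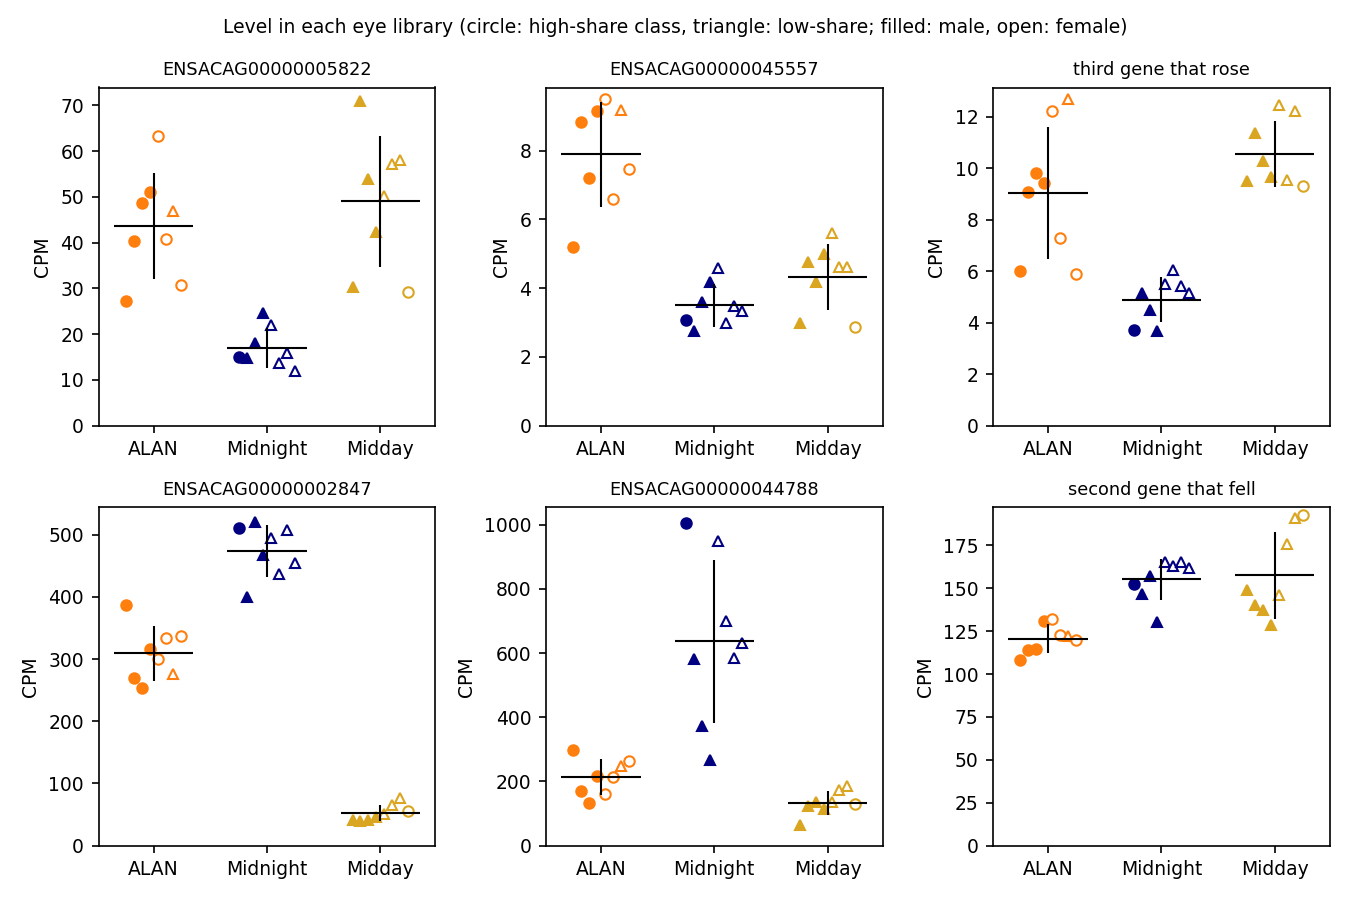
Levels in CPM (y axis, from 0) in each ALAN, Midnight and Midday eye for the 3 genes that rose (top), and below them ENSACAG00000002847, which missed the threshold, ENSACAG00000044788 and the other gene that fell; bars give the mean and SD of 8 libraries. Circles and triangles mark the high-share and low-share counting class, and filled and open symbols males and females. ENSACAG00000005822 has ALAN eyes at 27.2 to 63.3 CPM and Midnight eyes at 12.0 to 24.7 CPM.

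The few libraries that crossed treatment and class allow each class to be looked at by itself, as a description, since the genes were chosen on the same libraries. ENSACAG00000005822 stood at 47.0 CPM in the 1 low-share ALAN eye, against 12.0 to 24.7 CPM in the 7 low-share Midnight eyes. In the high-share class it was 27.2 to 63.3 CPM in 7 ALAN eyes, against 14.9 CPM in the 1 Midnight eye. ENSACAG00000045557 was likewise higher under light within each class, at 9.18 CPM against 2.76 to 4.57 CPM and at 5.20 to 9.50 CPM against 3.07 CPM. ENSACAG00000044788 was lower under light within each class, at 250 CPM against 267 to 949 CPM in the low-share class and at 132 to 298 CPM against 1007 CPM in the high-share class. For ENSACAG00000002847 the values were 276 CPM against 400 to 520 CPM, and 253 to 388 CPM against 511 CPM. All 5 called genes had the lone crossing library beyond every library of the other treatment in both classes. Among the 26 genes called without the class term this held in both classes for 20. The same count was not made over all genes tested, so no share stands beside these values.

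The 26 genes called without the class term give a wider, less firm view of the lit eye. The 13 higher genes had log2 changes of 0.32 to 1.36 and the 13 lower genes of -0.36 to -5.58 in that fit. With the class term 26 of 26 kept their sign, 22 had an unadjusted p under 0.05, and the median size of the change was 0.66, against 0.73 without the term (absolute log2). The median SE was 0.153 with the term and 0.116 without it. Both fits used the same libraries, so the kept signs are not independent of the first calls. For 3 of the 26, expression also differed between the classes (adjusted p under 0.05, edgeR; 98 of all genes tested, or 0.595%, with 71 higher, 0.431%, and 27 lower, 0.164%, in the low-share class). Those 3 had log2 changes of -2.70, -0.53 and -0.37 without the class term, and of -0.75, -0.20 and -0.12 with it. The 98 genes that differed between the classes had a median length of 327 bases, against 1797.5 over all genes tested. In 10 of the 26, 6 higher and 4 lower, the ALAN and Midnight ranges did not overlap, against 20 genes (0.121%) of all those tested. The 26 were called from these same libraries, so ranges that lie apart follow in part from the calls. The ranges also take no account of the class. The gene with the most negative value rested on very low counts: it had 0 or 1 count in each ALAN eye and 0 to 63 counts in the Midnight eyes, so its log2 change depends on how zeros are handled.

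**Figure D3:**
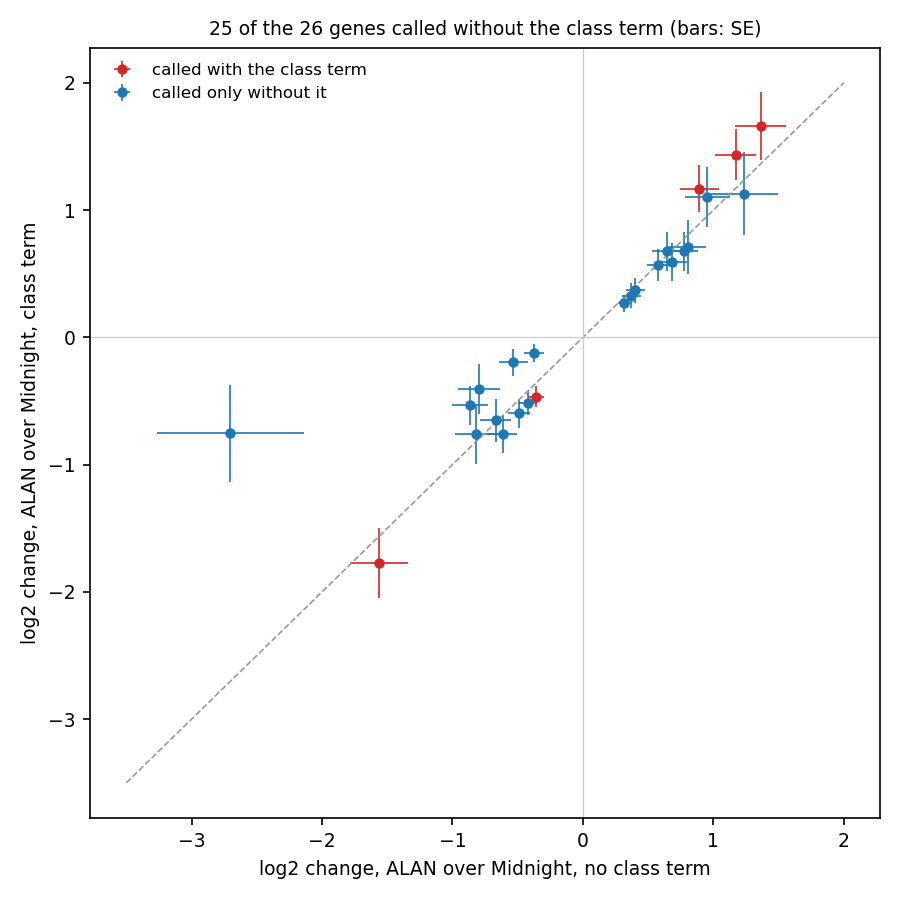
Log2 change, ALAN over Midnight, without the class term (x axis) and with it (y axis), for 25 of the 26 genes called without it; bars give the SE, the dashed line marks equality and 1 gene of very low counts is left out. Points lie in the same quadrant in both fits, and the 5 genes called with the term are red.

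The midday levels divided the 26 genes. Of the 13 genes higher under light, 7 were also called higher at Midday than on the dark night, and of the 13 lower genes 7 were called lower at Midday. No gene was called in opposite directions, and 12 were not called between Midday and Midnight. Both contrasts use the same Midnight eyes, so their signs are not independent. The mean ALAN level lay between the Midnight and Midday means in 12 of the 26, a count that was not made over all genes tested. Between Midday and Midnight, 664 genes (4.03%) were called, with 363 higher (2.21%) and 301 lower (1.83%). For ALAN against Midday 86 genes were called (0.522%), with 23 higher (0.14%) and 63 lower (0.383%). Midday and Midnight eyes had 7 low-share libraries each, whereas ALAN eyes had 7 high-share ones. Class thus overlapped with treatment mainly in the contrasts with ALAN, and the numbers of calls do not compare sizes of effect.

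Of the 26 genes 17 lay on unplaced scaffolds and 9 on chromosomes 1 to 6, while 49.0% of all genes tested lay on unplaced scaffolds. Their highest mean level among tissues was in the eye for 11 genes, and 14.9% of all genes tested had it there. In 2 places a pair of the 26 were neighbours with 0 annotated genes between them. On scaffold GL343506.1, ENSACAG00000045557 lay 24240 bases from a gene that was also higher in ALAN eyes, with a log2 change of 0.95 without the class term (adjusted p = 0.0120, edgeR) and 1.10 with it (adjusted p = 0.186, edgeR). On scaffold GL343868.1 the pair, both higher, lay 43325 bases apart.

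Brain, the other tissue of the head sampled from the same animals, shared some of the higher genes. There 15 of 17192 genes were called for ALAN against Midnight (0.0872%), 12 higher (0.0698%) and 3 lower (0.0174%). All brain libraries were of 1 counting class, so the class term was not needed there. Of the higher genes 4 were called in both tissues, which is 30.8% of the 13 in eye without the class term and 33.3% of the 12 in brain. Of the lower genes 0 were shared, of 13 in eye and 3 in brain. ENSACAG00000045557 had 9.64, 11.4 and 15.2 CPM in ALAN brains, against 4.90, 6.09 and 8.53 CPM in Midnight brains, where levels are scaled by library total. Its groups did not overlap in brain either, and the log2 change was 0.93 ± 0.12 (SE, adjusted p = 0.00102, edgeR). Its neighbour changed by 0.86 in brain (log2, adjusted p = 0.0105, edgeR), and 1 gene of the other neighbouring pair by 0.65 (log2, adjusted p = 0.0346, edgeR). The fourth shared gene had a log2 change of 0.76 in brain (adjusted p = 0.00107, edgeR) and of 0.69 in eye without the class term (adjusted p = 0.00453, edgeR).

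ENSACAG00000005822 differed between the tissues, in a fit that was not repeated under the alternatives given below. ALAN brains had 6.31 ± 1.57 CPM and Midnight brains 5.98 ± 1.08 CPM (SD, n = 8 each), a log2 change of 0.07 ± 0.16 (SE). The light effect in eye minus that in brain was 1.56 ± 0.30 (log2, SE, adjusted p = 0.0412, edgeR), 1 of only 2 of 18226 genes (0.011%) for which that difference passed. In the other tissues its log2 change was -1.61 ± 0.47 in testes, -1.18 ± 0.54 in liver, -0.59 ± 0.27 in dorsal skin, -0.01 ± 0.66 in ovary and 0.42 ± 0.35 in ventral skin (SE), and none passed the test. ENSACAG00000002847 stood at 109 ± 13.7 CPM in ALAN brains and 115 ± 21.7 CPM in Midnight brains (SD, n = 8 each), and its eye minus brain difference of -0.70 ± 0.19 did not pass (log2, SE, adjusted p = 0.416, edgeR). ENSACAG00000044788 was near or under 1 CPM outside the eye in most libraries, apart from 1 Midnight brain at 18.0 CPM, and was not tested in liver or testes. In liver and testes all ALAN libraries and no Midnight ones were of the low-share class, so light and class cannot be told apart there. Ovary had 3 of 4 ALAN and 0 of 4 Midnight libraries of that class, and ventral skin 5 of 8 and 0 of 8. Light and class thus overlap in part in these tissues, where the class was a term.

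**Figure D4:**
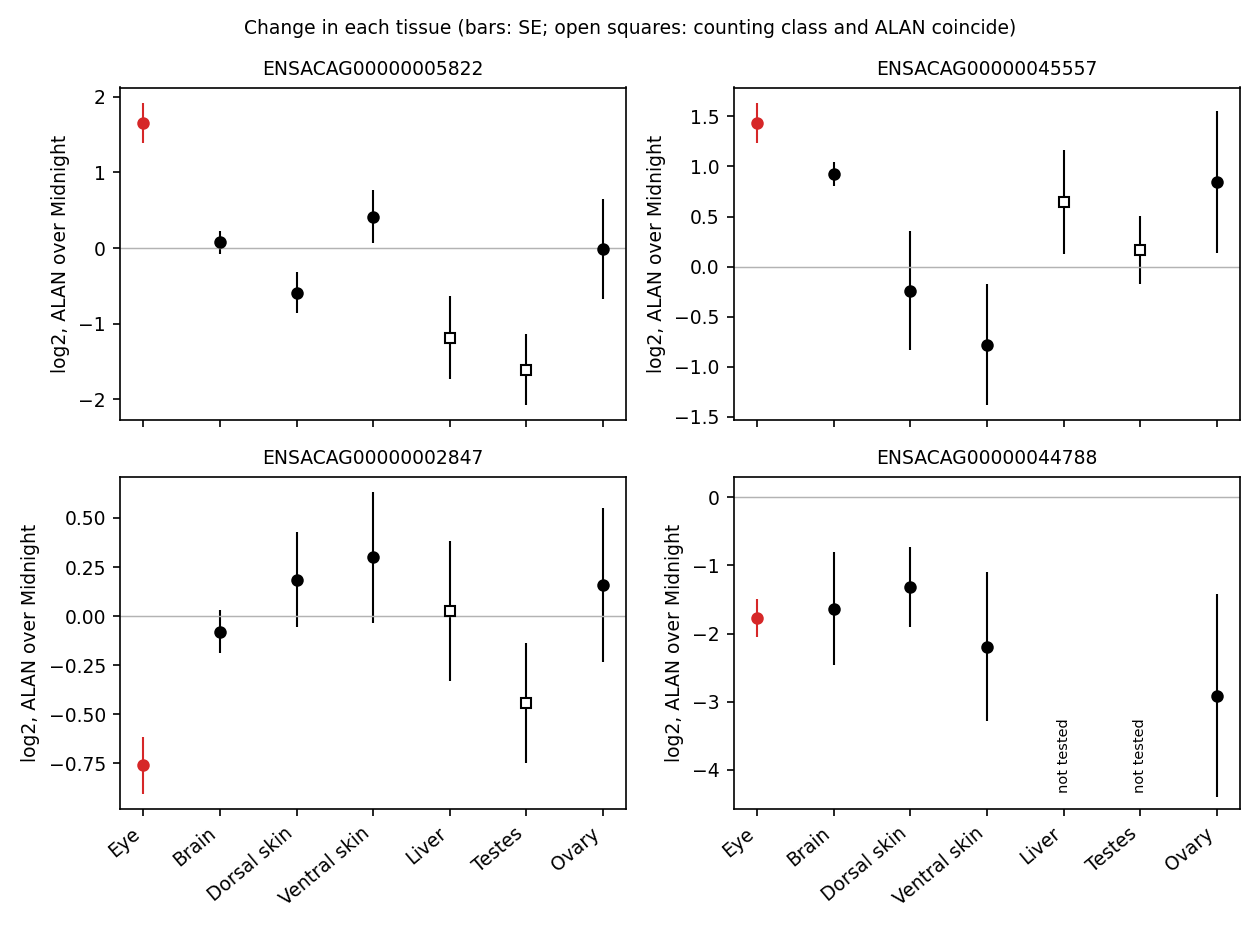
Log2 change, ALAN over Midnight (y axis; bars are SE), of the 4 genes given by ID in each tissue (x axis), eye in red. Open squares mark liver and testes, where counting class and ALAN coincide. In ovary and ventral skin, drawn as plain points, they overlap in part. ENSACAG00000005822 stands at 1.66 in eye and 0.07 in brain, and ENSACAG00000045557 at 1.43 and 0.93.

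The lists made in other tissues are small, and the genes of them that passed the test in the eye were few in number. Over all genes tested, 0.0182% were called higher and 0.0121% lower with the class term, and 0.079% in each direction without it. Some of the lists held a larger share of calls than that. The 12 genes higher under light in brain included 1 called higher in eye (4 without the class term), and 10 of the 12 had a log2 change above 0. Their median log2 change was 0.48, ranging from -0.10 to 1.43, beside -0.0013 over all genes tested, of which 8190 of 16462 lay above 0. The 3 genes lower in brain had a median of -0.11, and 0 of them were called. Of 19 genes called higher at Midday than at Midnight in at least 2 of brain, liver and both kinds of skin, 0 were called in eye (2 higher without the class term). Their median log2 change was 0.19, and 15 of 19 lay above 0. Of 5 genes higher at Midnight in those tissues, ENSACAG00000002847 among them, 0 were called (1 lower without the term), 1 lay above 0, and the median was -0.37. These lists were made from libraries of other tissues of the same animals, and the brain, liver and skin libraries share no counts with the eye ones.

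**Figure D5:**
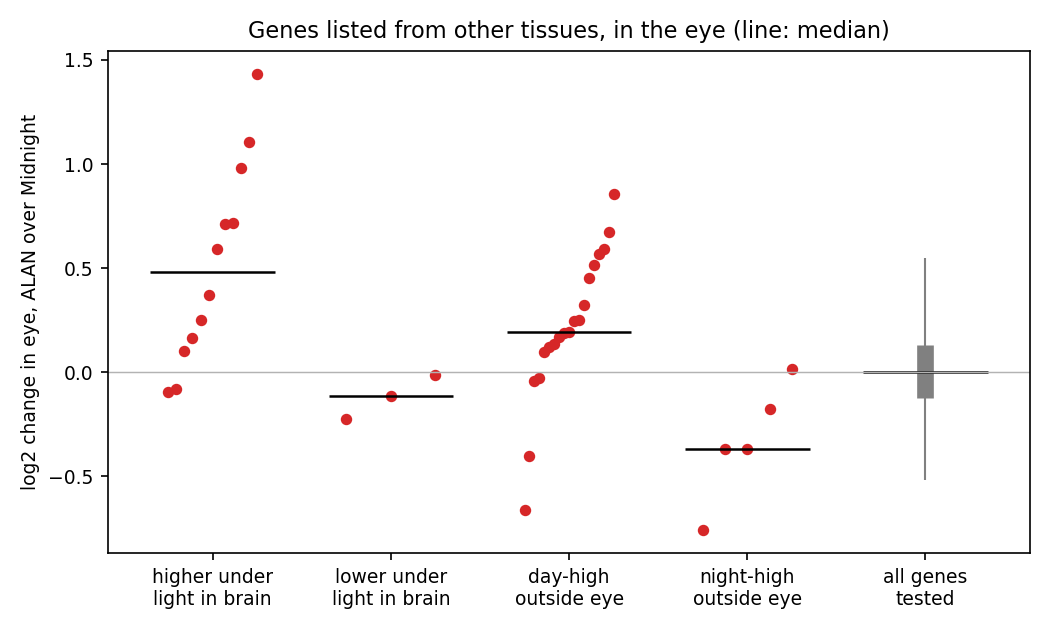
Log2 change in the eye, ALAN over Midnight (y axis), of each gene of 4 lists made in other tissues (points, with a line at the median) and of all genes tested (box from the 25th to the 75th percentile, whiskers from the 5th to the 95th). Genes higher under light in brain have a median of 0.48, and all genes run from -0.52 to 0.55 between the whisker ends.

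The share of counts taken by tissue-enriched genes overlapped between the groups. Eye-enriched genes took 5.75% to 13.3% (median 8.63%) of counts in ALAN eyes and 5.79% to 14.5% (median 9.88%) in Midnight eyes. Of these 206 genes 72 had a log2 change above 0, with a median of -0.07. Genes enriched in other tissues also took counts in the eye samples. Whether these came from other material or from cells of the eye was not tested. Brain-enriched genes took 0.183% to 0.227% in ALAN eyes and 0.175% to 0.243% in Midnight eyes. In the same order, liver-enriched genes took 0.217% to 0.321% and 0.212% to 0.339%. Skin-enriched genes took 0.153% to 0.216% and 0.139% to 0.230%. None of the brain-, liver-, ovary-, skin- or testes-enriched genes was called, nor any mitochondrial gene. Over all genes tested 0.0304% were called, so an absence of calls says little about lists of this size. The genes tested ran from 12 (mitochondrial) to 552 (testes-enriched). Without the libraries that stood apart, 1 testes-enriched gene was called. The list medians lay between -0.16 and 0.07 (log2). These medians hung on the fit: each of them, and that of the eye-enriched genes, changed sign in at least 1 alternative. The widest moves were in skin-enriched genes, at 0.62 in the high-share class alone and at -0.58 to 0.29 with single libraries left out (lowest without Midnight male 1, highest without Midday female 4), and in liver-enriched genes, at 0.23 and at -0.25 to 0.09. Mitochondrial genes took 1.61% to 2.02% of counts in ALAN eyes and 1.28% to 2.33% in Midnight eyes. In the Midday eyes, which entered the fit, liver-enriched genes took 0.292% to 0.635% and skin-enriched genes 0.143% to 0.420%. Brain-enriched genes took 0.111% to 0.223% there, and mitochondrial genes 1.60% to 3.13%.

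The light effect was called different between males and females for 0 of 16462 genes by edgeR and for 2 by DESeq2. An unadjusted edgeR p under 0.05 was found for 618 genes (3.75%). The smallest adjusted p of that difference was 0.293 (edgeR). Of the 26 genes called without the class term, 26 had the same sign in males and females. They were called on these same libraries of both sexes, so a shared sign follows largely from that choice. The same count was not made over all genes tested. The precision of the comparison bounds what could be seen. With the class term the median SE over genes was 0.188, and the median half-width of the 95% interval was 0.390 (log2). The interval lay within 1 log2 unit of 0 for 76.1% of genes, so for those a change beyond that size falls outside the interval.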

How the data were processed

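RNA of each eye was sequenced as 1 library per animal. The deposited table holds raw read counts per Ensembl gene ID, with each gene's coordinates and length, which are printed as the table gives them. The tools listed in the submitters' processing notes, without their roles, are FastQC, Trimmomatic, Subread, featureCounts and STAR 2.7.11a; build, annotation release, strand setting and handling of reads with several positions are stated in none of the sources used here. Columns were matched to libraries by name, and 0 columns were left out. No name could be paired with an ID (0 of 26479 found among 27148 RefSeq genes of rAnoCar3.1), so the lists by symbol, marker checks and sequences were not used, and at most 2 IDs are printed for each direction.

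All 24 eye libraries were fitted with edgeR 4.0.16 in R 4.3.3 (robust quasi-likelihood fit, TMM, filterByExpr by treatment and sex), with treatment, sex and counting class (share of even values among counts 1 to 20 above or below 50%) as terms. P-values were adjusted by Benjamini-Hochberg over all genes tested, and SEs are the log2 change divided by the root of F. Eye levels are CPM with TMM factors, and levels of other tissues are CPM by library total. The sex difference was tested with a mean for each treatment and sex, and the eye minus brain difference across both tissues. Other tissues used the same model, with the class term where it could be estimated, which was not so in brain, liver and testes. Tissue-enriched genes averaged 5 CPM or more, and 8-fold or more the mean of each other tissue. The members, gene lists and named genes were chosen with earlier results of these data known. The rule named the 2 called genes with the largest rise, ENSACAG00000002847, and the called gene with the largest fall, each with a mean of at least 1 CPM; the others were described by position after their values were seen.

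Alternatives were DESeq2 1.42.0, its size factors, no filter, no class term, the even share as a number and halved counts of the high-share class. Also used were each class alone, no sex term, a replicate block, ALAN and Midnight eyes alone, and leaving out libraries. Same-numbered libraries came from different animals, so the numbers were not taken to pair them. Their deviations correlated above 0.1 in 3 of 8 pairs, the highest being male 1 at 0.279 and female 1 at 0.232. Differently numbered libraries were not compared, so whether the numbers carry a shared effect was not tested. No 2 libraries of a treatment agreed within sampling noise: the lowest chi-square per degree of freedom was 15.0 over 56 pairs. The scripts were tested on simulated data.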

Additional observations from a re-analysis of the deposited data

Results flagged for a closer look

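The light effect on ENSACAG00000005822 differed between tissues: eye minus brain was 1.56 ± 0.30 (log2, SE, adjusted p = 0.0412, edgeR), with 1.66 in eye and 0.07 in brain. That difference was not refitted under the alternatives. All 8 ALAN eyes lay above all 8 Midnight eyes, whereas the brain ranges overlapped, at 3.95 to 8.60 CPM under ALAN and 3.79 to 7.12 CPM at Midnight. Eye and brain came from the same animals, which the fit across both tissues treated as separate libraries. In 39 groups of libraries examined for a single library far from the others, 0 had one. Chance flags about 1 in 20 such groups. The check did not take in every gene and tissue. In 1 gene called only without the class term, ALAN male 1 stood at 104 CPM. The other ALAN eyes had 60.0 to 74.3 CPM. For ENSACAG00000044788, 1 Midnight brain stood at 18.0 CPM, against a median of 0.702 CPM in the Midnight brains. The Midday eyes that stood apart by median correlation are described above.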

How the results depend on the processing

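The 5 called genes and ENSACAG00000002847 kept their direction under every alternative. Medians of the tissue-enriched lists and of the mitochondrial genes did not. The other genes called without the class term were not followed one by one through the alternatives. Using the even share as a number, or halving the counts of the high-share class, stays close to the main fit by design. The even share separates the same classes, and scaling by library total takes up a halving. The count of genes changed under ALAN stayed at 5 (3 higher, 2 lower) in both, with DESeq2's size factors and with no filter. It was 26 (13 and 13) without the class term, 19 (10 and 9) with DESeq2, 8 (4 and 4) without the 3 libraries that stand apart, 4 (3 and 1) without the sex term and in the low-share class alone, and 1 (0 and 1) in the high-share class alone. It was 0 (0 and 0) by edgeR for the ALAN and Midnight eyes alone, with 1158 at an unadjusted p under 0.05. A replicate block also gave 0 (0 and 0, with 1073 of 16462 genes at an unadjusted p under 0.05). The numbers were not paired, since they name different animals. Correlations of same-numbered libraries ran from -0.064 to 0.279, with no differently numbered libraries set beside them. Halving the counts of the high-share class with no class term, chosen after seeing the data, gave 21 (12 and 9). The 5 genes were all among those called by DESeq2 and without the class term. None was called in either class alone, where 1 treatment has a single library that is assumed to vary like the others; the log2 changes there were 1.46 and 1.46 (high-share class, low-share class) for ENSACAG00000005822, 1.28 and 1.31 for ENSACAG00000045557, and -2.32 and -1.47 for ENSACAG00000044788. Leaving out single libraries gave 1 to 7 changed, 0 to 3 higher and 0 to 4 lower. Without Midday female 4 the count was 1 (0 and 1), without Midnight male 1 it was 2 with 0 lower, and without ALAN female 3 it was 2 (1 and 1). The cause was not tested; these 3 are the libraries whose class crosses their group. Genes whose effect differed by sex numbered 0 in edgeR, 2 in DESeq2, and 0 to 1 with single libraries left out (1 without ALAN female 3).

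Single omissions left ENSACAG00000005822 at 1.48 to 1.78 (log2, adjusted p 0.00465 to 0.128, edgeR), ENSACAG00000045557 at 1.30 to 1.54 (0.00197 to 0.0602), ENSACAG00000044788 at -1.98 to -1.25 (0.00393 to 0.658) and ENSACAG00000002847 at -0.84 to -0.70 (0.0106 to 0.631). The remaining called gene that rose stood at 1.11 to 1.22 (log2, adjusted p 0.00342 to 0.271, edgeR). The other called gene that fell stood at -0.49 to -0.42 (log2, adjusted p 0.0106 to 0.256, edgeR). DESeq2 gave ENSACAG00000002847 an adjusted p of 0.000956. The totals of counts differed by class, and treatment nearly followed class, so the precision of every light effect is set by few libraries.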
